A study of Mus musculus with 16 samples.

Results

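The genes described here are *Il15*, which encodes the cytokine IL-15, and 5 receptor chains that bind IL-15 or its relatives: *Il15ra*, *Il2ra*, *Il2rg*, *Il7r* and *Il21r*. They were taken by name from the deposited table of RNA-seq values of mouse bone marrow-derived dendritic cells (BMDCs), and make up 6 of its 23356 genes. The rule that picks them reads names and no measured value, although the genes were proposed with earlier results of these data known. All 6 had a status of OK in each of the 8 conditions, and all 6 passed the filter on low values in each of the 11 comparisons made.

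IL-15 is a cytokine that keeps natural killer (NK) cells and memory CD8+ T cells alive. A dendritic cell makes IL-15 together with IL-15Rα, the chain encoded by *Il15ra*, and holds the cytokine on its own surface for a neighbouring lymphocyte to bind, which is called trans-presentation. The lymphocyte reads it through IL-2Rβ (*Il2rb*) paired with the common gamma chain (*Il2rg*), and the same gamma chain also serves the receptors for IL-2, IL-4, IL-7, IL-9 and IL-21. IL-2Rα (*Il2ra*, CD25) gives the IL-2 receptor its high affinity, *Il7r* encodes the IL-7 receptor alpha chain that the receptor for TSLP also uses, and *Il21r* encodes the chain specific to IL-21.

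BMDCs were grown from marrow of C57BL/6 wild-type mice and of mice lacking *Tmem173* (STING, the sensor of cyclic dinucleotides), *Irf1*, or both *Irf3* and *Irf7*, which are transcription factors of the interferon regulatory factor (IRF) family. Every culture received GM-CSF and IL-4, the latter itself a gamma-chain cytokine, and floating or loosely attached cells were used without a sort. Cells were left untreated (NT) or stimulated with c-di-GMP (CDG), the bacterial dinucleotide that activates STING, at 25 ug/ml for 18 h according to the labels. The study's text names a higher dose for this experiment. There were 16 samples, 2 for each of the 4 genotypes and each treatment, and nothing in the labels said whether the 2 came from separate mice. The authors combined the 2 samples into 1 FPKM (fragments counted for a gene, scaled for its length and for the size of the library) with a confidence interval for each condition, so no value per sample, no SD and no p-value can be given. The study's methods describe young adult, sex-matched mice, and the sources used here do not name the deleted exons. The column for treated *Tmem173*-/- BMDCs was assigned from an abbreviated name, and its values are given under that reading.

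The targeted genes were read first. *Tmem173* was at 103 FPKM in untreated wild-type BMDCs and at 8.97 and 7.49 FPKM in untreated and treated *Tmem173*-/- BMDCs. *Irf1* was at 149 and 245 FPKM in untreated and treated wild-type BMDCs and at 25.9 and 116 FPKM in *Irf1*-/- BMDCs, so that fragments of the gene were still counted in the knockout. *Irf7* reached 687 FPKM in treated wild-type BMDCs and 4.97 FPKM in treated *Irf3/7*-/- BMDCs. *Irf3* was at 7.74 FPKM in untreated *Irf3/7*-/- BMDCs against 19.9 FPKM in untreated wild-type BMDCs, but at 20.2 FPKM in treated *Irf3/7*-/- BMDCs against 15.8 FPKM in treated wild-type BMDCs. A value over a whole gene does not show whether the deleted part is missing, so the *Irf1* and *Irf3* values alone do not check those labels.

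The cultures expressed dendritic cell markers, of which 7 or 8 of 8 were at 1 FPKM or more in every condition, but their levels differed between some genotypes. In untreated *Irf1*-/- against untreated wild-type BMDCs 1 of 8 tested was called higher and 2 lower, where 3.52% of all genes tested were called lower. *H2-Aa* was at 364 against 1031 FPKM. In treated *Tmem173*-/- against treated wild-type BMDCs 2 of 8 were called higher and 1 lower, where 13.5% of all genes tested were called lower. Genes of other cells also differed between genotypes. The summed level of 10 T cell markers was 81.1 and 58.1 FPKM in untreated and treated wild-type BMDCs, with 9 and 8 of them at 1 FPKM or more. In *Irf3/7*-/- BMDCs the sums were 110 and 192 FPKM with 9 and 9 of 10 detected, in *Irf1*-/- BMDCs 7.88 and 12.1 FPKM with 3 and 3, and in *Tmem173*-/- BMDCs 2.12 and 2.24 FPKM with 0 and 0. The summed level of 8 NK cell markers was likewise lowest in treated *Tmem173*-/- BMDCs, at 3.86 FPKM with 1 of 8 detected, and highest in treated *Irf3/7*-/- BMDCs, at 2178 FPKM with 6 of 8 detected. Most of this sum was *Gzma* (900 FPKM) and *Gzmb* (1242 FPKM), granule genes that cytotoxic T cells also express. In the *Irf3/7*-/- response 5 of the 7 NK cell markers tested were called higher, where 10.2% of all genes tested were. The other 2, *Klrb1c* and *Eomes*, were called lower. Both were also called lower in the wild-type response, *Klrb1c* from 1.35 to 0.151 FPKM and *Eomes* from 8.02 to 2.24 FPKM. *Ncr1*, which defines NK cells, stayed between 0 and 0.661 FPKM. The 6 neutrophil markers in the table summed to 19829 and 14396 FPKM in untreated and treated *Tmem173*-/- BMDCs. In the other conditions the sums lay between 1404 and 4000 FPKM, and 5 or 6 of 6 were detected in every condition. Most of the untreated *Tmem173*-/- sum was *S100a8* (10351 FPKM, outside its own interval of 5199 to 10137) and *S100a9* (8336 FPKM). *Mpo* went another way, at 24.7 FPKM in untreated *Irf1*-/- and 19.1 FPKM in untreated *Tmem173*-/- BMDCs. The 7 macrophage markers summed to 474 and 451 FPKM in *Tmem173*-/- BMDCs and to between 169 and 277 FPKM in the others, with 5 to 7 of 7 detected. Markers of B cells summed to between 3.41 and 10.7 FPKM with 1 to 4 of 6 detected, and markers of basophils, mast cells and group 2 innate lymphoid cells to between 75.4 and 256 FPKM with 6 or 7 of 7 detected. In RNA from a mixed culture, fewer cells of a type and less RNA per cell cannot be told apart.

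The genes lie on 5 chromosomes. On GRCm38, *Il15* spans chr8:82331624-82402586 on the minus strand, *Il2rg* chrX:101264387-101268206 on the minus strand, *Il7r* chr15:9506159-9529876 on the minus strand and *Il21r* chr7:125603429-125633570 on the plus strand. *Il2ra* (chr2:11642792-11693194) and *Il15ra* (chr2:11705293-11733985) are neighbours on the plus strand of chromosome 2, with 12.1 kb between them. All 6 are annotated as protein-coding, and no other gene of the table overlapped any of them.

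The stretches of 250 bases before the starts of *Il2ra* and *Il15ra* are shown because these neighbours had the largest responses to c-di-GMP among the receptor chains. Sequences are from RefSeq, GRCm38.p6, in which 5 of the 6 genes had an entry, with 6 windows in all. The gene without an entry was *Il15*, so its start was not searched. Capitals mark a match to a motif.
Il2ra, chr2:11642542-11642791, plus strand: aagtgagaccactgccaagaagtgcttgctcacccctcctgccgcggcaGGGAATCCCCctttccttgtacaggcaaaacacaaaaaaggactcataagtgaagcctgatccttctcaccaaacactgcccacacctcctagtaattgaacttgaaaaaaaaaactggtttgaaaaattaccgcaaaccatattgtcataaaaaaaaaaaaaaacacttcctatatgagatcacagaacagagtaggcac
Il15ra, first start, chr2:11705043-11705292, plus strand: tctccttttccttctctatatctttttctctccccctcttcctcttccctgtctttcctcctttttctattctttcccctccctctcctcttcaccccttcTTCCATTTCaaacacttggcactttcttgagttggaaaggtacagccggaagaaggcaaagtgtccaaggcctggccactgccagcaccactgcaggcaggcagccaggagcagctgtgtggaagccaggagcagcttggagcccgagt
The capitals in *Il2ra* match a kappaB-type motif bound by NF-kappaB proteins, searched as GGGA and CC with any 4 bases between them, and begin at position -201 from the start. The capitals in *Il15ra* match GAAANNGAA, a repeat of the core that IRF proteins bind, on the opposite strand, and begin at position -149. A second start of *Il15ra* also carried this repeat, from position 31 after it, and *Il7r* carried TTCNNNGAA, the palindrome that STAT proteins bind, at position -142. Both are shown with 10 bases on each side.
Il15ra, second start, chr2:11705732-11705760, plus strand: aagcaaaagcGAAAGCGAAtactccttag
Il7r, chr15:9530000-9530028, minus strand: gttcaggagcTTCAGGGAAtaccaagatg
Both strands were searched, and the motifs were chosen after the sequences had been read. The IRF repeat was found in 8.56% of the 32851 windows in the table, which hold the 250 bases before and 50 bases after a start, the STAT motif in 8.30% and the kappaB motif in 20.7%. A longer IRF motif is the same repeat with a further A at its end, and overlaps the shorter. It was found in 3.44% of windows and in none of the 6 windows of these genes, which do not cover *Il15*. *Il21r*, whose level did not move with treatment, had a kappaB match too, and the window of *Il2rg* held none of the motifs. These matches describe letters and not binding.

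*Il15* and *Il15ra*, the cytokine and the chain that presents it, rose together with c-di-GMP in wild-type, *Irf1*-/- and *Irf3/7*-/- BMDCs and did not pass the call in *Tmem173*-/- BMDCs. A change was called where the fold change exceeded 2 on FPKM + 0.1, the authors' intervals lay apart and at least 1 FPKM was reached in one of the conditions. *Il15* was at 10.7 FPKM (interval 7.52 to 13.9) in untreated and 74.6 FPKM (57.7 to 91.4) in treated wild-type BMDCs. The values were 4.71 (3.34 to 6.08) and 56.2 (43.5 to 68.9) in *Irf1*-/-, and 10.8 (8.10 to 13.6) and 70.1 (54.1 to 86.2) in *Irf3/7*-/- BMDCs. In *Tmem173*-/- BMDCs they were 4.55 (3.17 to 5.92) and 3.87 (2.69 to 5.07). The 3 treated conditions with STING thus stood above all others with no overlap of intervals, and their own intervals overlapped in the order wild-type, *Irf3/7*-/-, *Irf1*-/-. The rise was 6.90-fold in wild-type (log2 2.79), 11.7-fold in *Irf1*-/- (3.55) and 6.43-fold in *Irf3/7*-/- BMDCs (2.68), and the log2 difference in *Tmem173*-/- BMDCs was -0.23.

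The receptor alpha chain gene followed the cytokine closely. *Il15ra* was at 12.8 FPKM (9.38 to 16.1) and 80.1 FPKM (56.3 to 105) in untreated and treated wild-type BMDCs. It was at 3.82 (2.33 to 5.35) and 39.6 (26.7 to 52.9) in *Irf1*-/-, at 10.9 (7.39 to 14.6) and 53.8 (37.9 to 70.5) in *Irf3/7*-/-, and at 5.54 (3.48 to 7.59) and 4.77 (3.08 to 6.53) in *Tmem173*-/- BMDCs. The log2 responses were 2.64, 3.34 and 2.29 in wild-type, *Irf1*-/- and *Irf3/7*-/- BMDCs, all called, and -0.21 in *Tmem173*-/-. In every one of the 8 conditions the intervals of *Il15* and *Il15ra* overlapped. The ratio of *Il15ra* to *Il15*, both per length, lay between 0.704 in treated *Irf1*-/- and 1.23 in treated *Tmem173*-/- BMDCs, a narrow range beside the span of *Il15* itself from 3.87 to 74.6 FPKM.

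*Il2ra*, the IL-2 receptor alpha chain, had the widest range of responses among the genotypes with STING. It was at 14.4 FPKM (11.1 to 17.7) and 71.0 FPKM (54.7 to 87.3) in untreated and treated wild-type BMDCs. In *Irf1*-/- BMDCs it started lower, at 7.31 (5.61 to 9.01), and ended at 85.9 (65.9 to 106), the highest value of the 8. In *Irf3/7*-/- BMDCs it went from 8.82 (6.78 to 10.8) to 70.2 (53.9 to 86.5), and in *Tmem173*-/- BMDCs it was at 3.59 (2.69 to 4.48) and 4.88 (3.74 to 6.03). The 3 treated levels with STING overlapped one another, while the untreated wild-type level lay apart from the untreated level of every knockout. The response was called at 4.91-fold in wild-type, 11.6-fold in *Irf1*-/- and 7.89-fold in *Irf3/7*-/- BMDCs (log2 2.29, 3.54 and 2.98), and the log2 difference in *Tmem173*-/- was 0.43. The log2 response in *Irf1*-/- BMDCs exceeded that in wild-type BMDCs by 1.24 for *Il2ra*, by 0.76 for *Il15* and by 0.70 for *Il15ra*, differences that cannot be tested without replicate values and that come with lower untreated levels.

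*Il2rg*, the gamma chain itself, was the most abundant of the 6 in every condition and changed least among those that rose. It was at 158 FPKM (117 to 199) and 359 FPKM (267 to 450) in untreated and treated wild-type BMDCs, a called rise of 2.27-fold (log2 1.18). It was at 118 (87.5 to 147) and 206 (153 to 257) in *Irf1*-/-, at 170 (126 to 212) and 316 (234 to 396) in *Irf3/7*-/-, and at 153 (116 to 190) and 142 (107 to 177) in *Tmem173*-/- BMDCs. In *Irf1*-/- and *Irf3/7*-/- BMDCs the intervals lay apart but the log2 differences of 0.80 and 0.89 did not reach the 2-fold limit, so these were not called. Its level exceeded that of 93.6% to 97.5% of genes with at least 1 FPKM in the same condition. Because the alpha chains rose further than the gamma chain, the ratio of *Il2rg* to *Il2ra* went from 11.0 to 5.05 in wild-type, from 16.1 to 2.39 in *Irf1*-/- and from 19.3 to 4.49 in *Irf3/7*-/- BMDCs, and stood at 42.7 and 29.1 in *Tmem173*-/- BMDCs.

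*Il7r*, the IL-7 receptor alpha chain, also rose in the 3 genotypes with STING. It was at 15.2 FPKM (11.5 to 18.8) and 48.8 FPKM (37.4 to 60.3) in wild-type, at 20.4 (15.6 to 25.1) and 56.4 (43.1 to 69.7) in *Irf1*-/-, and at 12.3 (9.39 to 15.2) and 41.3 (31.6 to 51.0) in *Irf3/7*-/- BMDCs. In *Tmem173*-/- BMDCs it was at 12.1 (8.99 to 15.3) and 15.9 (12.3 to 19.5). The rises were 3.20-fold, 2.76-fold and 3.34-fold (log2 1.68, 1.47 and 1.74), all called, and the log2 difference of 0.39 in *Tmem173*-/- was not. *Il7r* differed from the IL-15 pair in its untreated levels, whose intervals overlapped between each knockout and wild-type BMDCs.

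*Il21r*, the IL-21 receptor chain, was not called in any comparison. It was at 85.9 FPKM (65.2 to 107) and 91.1 FPKM (69.8 to 112) in wild-type, at 93.2 (71.2 to 115) and 93.0 (70.9 to 115) in *Irf3/7*-/-, at 66.6 (51.2 to 81.9) and 77.4 (59.5 to 95.4) in *Tmem173*-/-, and at 54.5 (41.7 to 67.2) and 53.0 (40.5 to 65.6) in *Irf1*-/- BMDCs. Its log2 responses lay between -0.04 and 0.22. The treated *Irf1*-/- level was the lowest of the 8, and its interval lay apart from those of treated wild-type and treated *Irf3/7*-/- BMDCs (log2 -0.78 and -0.81), short of the 2-fold limit.

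**Figure D1:**
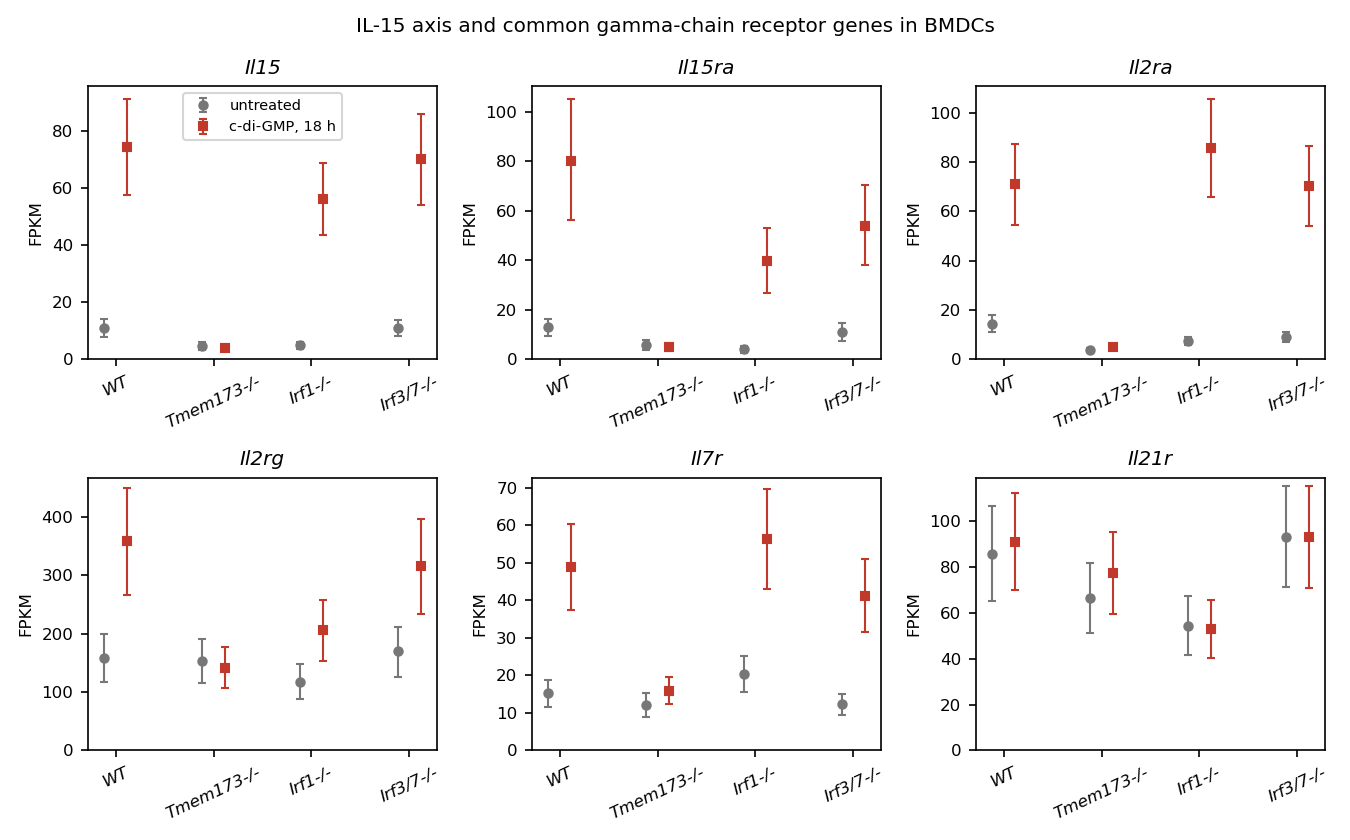
Level in FPKM of each of the 6 genes in untreated (grey circles) and c-di-GMP-treated (red squares) BMDCs of 4 genotypes. Points are the authors' FPKM for 2 combined samples and bars their confidence intervals. *Il15*, *Il15ra*, *Il2ra*, *Il2rg* and *Il7r* stand apart from their untreated levels in wild-type, *Irf1*-/- and *Irf3/7*-/- BMDCs, while *Il21r* stays between 53.0 and 93.2 FPKM.

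Counted as a group, 5 of the 6 genes rose in treated wild-type BMDCs, where 10.5% of all genes tested were called higher. Their median log2 response was 1.99, beside 0.0033 over all genes tested. In *Irf1*-/- BMDCs 4 of 6 rose, beside 9.67% of all genes, with a median of 2.40. In *Irf3/7*-/- BMDCs 4 of 6 rose, beside 10.2% of all genes, with a median of 2.02. In *Tmem173*-/- BMDCs none of the 6 was called, where 0.0552% of all genes were called in either direction, and the median was 0.054. The 2-fold limit alone separates the count of 5 from the counts of 4, since *Il2rg* had intervals apart in all 3 genotypes with STING.

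The knockouts were then compared with wild-type BMDCs after treatment. These 3 comparisons share the wild-type samples, and their values are given side by side. Treated *Tmem173*-/- BMDCs had 5 of the 6 genes lower, where 13.5% of all genes tested were called lower. *Il15* differed by -4.23 on the log2 scale, *Il15ra* by -4.04, *Il2ra* by -3.83, *Il7r* by -1.61 and *Il2rg* by -1.34, and *Il21r* differed by -0.23 and was not called. The 3 genes with the largest deficits were the cytokine and the alpha chains of the receptors for IL-15 and IL-2. The dendritic cell, T cell, NK cell, neutrophil and macrophage markers given above differed between the same conditions, and their part in these differences was not tested. The median over the 6 was -2.72, beside 0.018 over all genes.

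Treated *Irf1*-/- BMDCs had 1 of the 6 genes lower, where 4.91% of all genes tested were called lower. This was *Il15ra*, at 39.6 against 80.1 FPKM (log2 -1.01), a fold of 0.495 that lies just past the 2-fold limit and was not called with a pseudocount of 1 FPKM in place of 0.1. *Il15* (-0.41), *Il2ra* (0.27) and *Il7r* (0.21) had overlapping intervals. *Il2rg* (-0.80) and *Il21r* (-0.78) had intervals apart and differences under 2-fold. In the same comparison 5 of 8 T cell markers and 6 of 6 NK cell markers tested were called lower. So were 2 of 7 macrophage and 2 of 7 dendritic cell markers, and none on these lists was called higher. Their part in the *Il15ra* difference was not tested. Treated *Irf3/7*-/- BMDCs had none of the 6 called, where 7.30% of all genes tested were called in either direction. The differences ran from -0.57 for *Il15ra* to 0.03 for *Il21r*, all with overlapping intervals. Set directly against each other, treated *Irf1*-/- and treated *Irf3/7*-/- BMDCs gave none of the 6, where 9.84% of all genes were called, and *Il15ra* differed by -0.44.

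Before treatment, *Il15* and *Il15ra* were already lower in 2 of the knockouts. In untreated *Tmem173*-/- against untreated wild-type BMDCs, 3 of the 6 were called lower, where 5.95% of all genes were: *Il15* (4.55 against 10.7 FPKM, log2 -1.22), *Il15ra* (5.54 against 12.8, -1.19) and *Il2ra* (3.59 against 14.4, -1.97). In untreated *Irf1*-/- BMDCs 2 of the 6 were called lower, where 3.52% of all genes were, *Il15* at 4.71 FPKM (log2 -1.17) and *Il15ra* at 3.82 FPKM (log2 -1.71). *Il2ra* in this comparison had intervals apart and a log2 difference of -0.97. In untreated *Irf3/7*-/- BMDCs none was called, where 2.04% of all genes were called in either direction, and *Il15* was at 10.8 FPKM beside 10.7 in wild-type BMDCs. *Irf1* itself was at 149 and 164 FPKM in the untreated wild-type and *Irf3/7*-/- BMDCs and at 24.1 FPKM in untreated *Tmem173*-/- BMDCs. Other genes split in the same way. *Irf8* was at 55.5 and 69.8 FPKM in untreated wild-type and *Irf3/7*-/- BMDCs, and at 23.1 and 17.0 FPKM in untreated *Tmem173*-/- and *Irf1*-/- BMDCs. The part of *Irf1* or of such genes in the *Il15* and *Il15ra* levels was not tested. The untreated cultures with the lower *Il15* were also those with the lower T cell marker sums of 2.12 and 7.88 FPKM, beside 81.1 and 110 in the others, and the part of this in the difference was not tested.

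**Figure D2:**
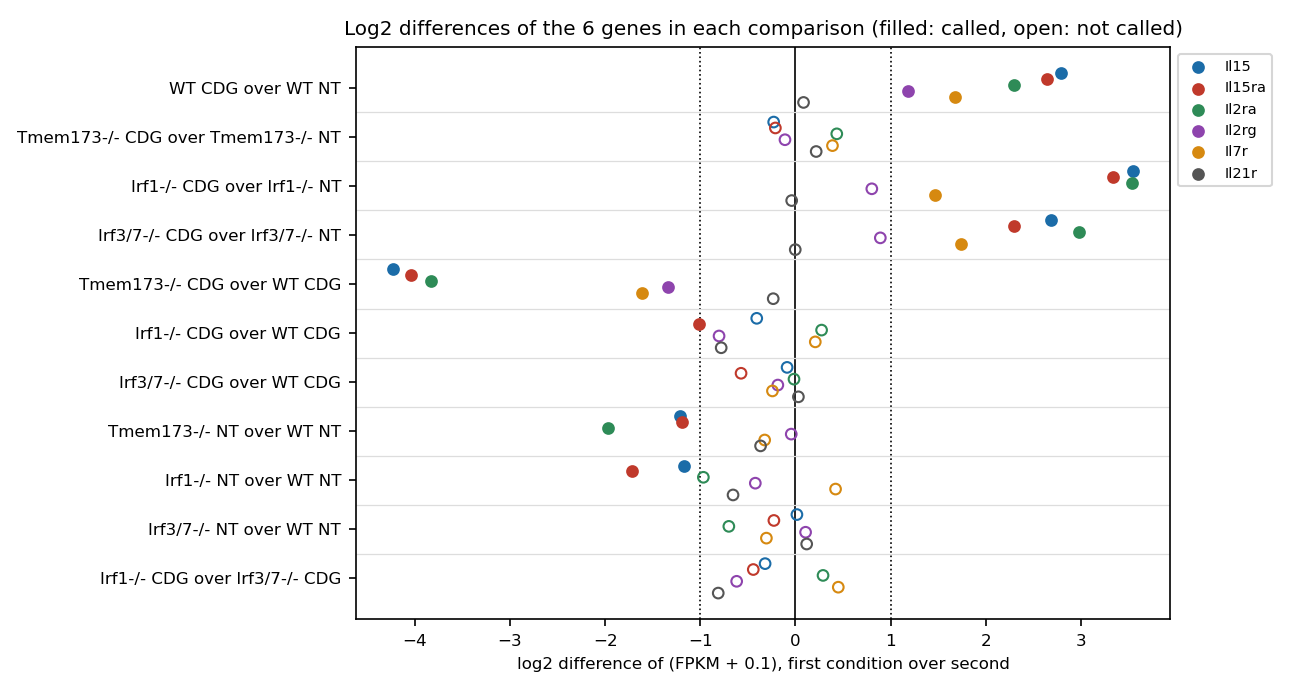
Log2 difference of FPKM + 0.1 (x axis) for the 6 genes in each of the 11 comparisons (rows, first condition over second), filled where called and open where not, with dotted lines at the 2-fold limit. In the response rows the filled points of wild-type BMDCs lie between 1.18 and 2.79, and *Tmem173*-/- has none. In treated *Irf1*-/- over treated wild-type BMDCs the single filled point is *Il15ra* at -1.01.

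*Il2rb* is not one of the 6, but it is the chain with which the gamma chain signals for IL-15 and IL-2, and it did not follow them. It was at 65.3 FPKM (49.8 to 80.8) in untreated and 37.7 FPKM (28.7 to 46.5) in treated wild-type BMDCs, and at 83.9 (63.6 to 104) and 145 (110 to 180) in *Irf3/7*-/- BMDCs. In *Irf1*-/- BMDCs it was at 2.48 (1.77 to 3.19) and 2.34 (1.65 to 3.01), and in *Tmem173*-/- BMDCs at 0.0439 (0 to 0.0885) and 0.0385 (0 to 0.0737). The log2 differences with treatment were -0.79 in wild-type and 0.79 in *Irf3/7*-/- BMDCs, with intervals apart in both and neither called. Treated *Irf3/7*-/- BMDCs had 3.83-fold the level of treated wild-type BMDCs (log2 1.94, called higher), while treated *Irf1*-/- (-3.96) and treated *Tmem173*-/- BMDCs (-8.09) were called lower. The same order held among the untreated cultures, at -4.66 for *Irf1*-/- and -8.83 for *Tmem173*-/-, both called lower. In untreated *Tmem173*-/- BMDCs *Il2rb* was thus near 0 while *Il15* was at 4.55 FPKM and *Il2rg* at 153 FPKM.

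Genes of T cells and cytotoxic cells were read beside *Il2rb*, picked after their values were seen. *Cd3e*, a chain of the T cell receptor complex, was at 9.18 and 5.41 FPKM in untreated and treated wild-type BMDCs and at 14.3 and 23.3 FPKM in *Irf3/7*-/- BMDCs. It was at 0.641 and 0.479 FPKM in *Irf1*-/- BMDCs, and in *Tmem173*-/- BMDCs at 0.0701 and 0.0103 FPKM. *Cd8a*, the CD8 alpha chain, was at 21.8 and 16.5, 33.2 and 60.8, 1.70 and 1.40, and 0.497 and 0.414 FPKM in the same order of genotypes. Like *Il2rb*, both were highest in treated *Irf3/7*-/- BMDCs and lowest in *Tmem173*-/- BMDCs, and like it neither was called with treatment in any genotype. In *Irf3/7*-/- BMDCs the intervals of *Cd8a* lay apart (25.7 to 40.8 untreated, 46.6 to 74.9 treated), while those of *Cd3e* overlapped. Of the 10 T cell markers, 9 were tested in the wild-type and in the *Irf3/7*-/- response. Of these, *Cd5* was called lower in wild-type and none was called in *Irf3/7*-/- BMDCs. The median log2 difference of those tested was -0.51 in wild-type and 0.78 in *Irf3/7*-/- BMDCs. Members of the list also went other ways than *Il2rb*. *Cd5* was at 2.91 and 1.45 FPKM in untreated and treated *Irf3/7*-/- BMDCs, and *Lck*, a kinase of T cell receptor signalling, rose from 1.26 to 6.16 FPKM in *Irf1*-/- BMDCs (log2 2.20). *Gzmb*, a granule protease on the NK cell list, was at 321 and 336 FPKM in wild-type BMDCs and rose from 362 to 1242 FPKM in *Irf3/7*-/- BMDCs (log2 1.78). The part of these cells in the *Il2rb* values was not tested.

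**Figure D3:**
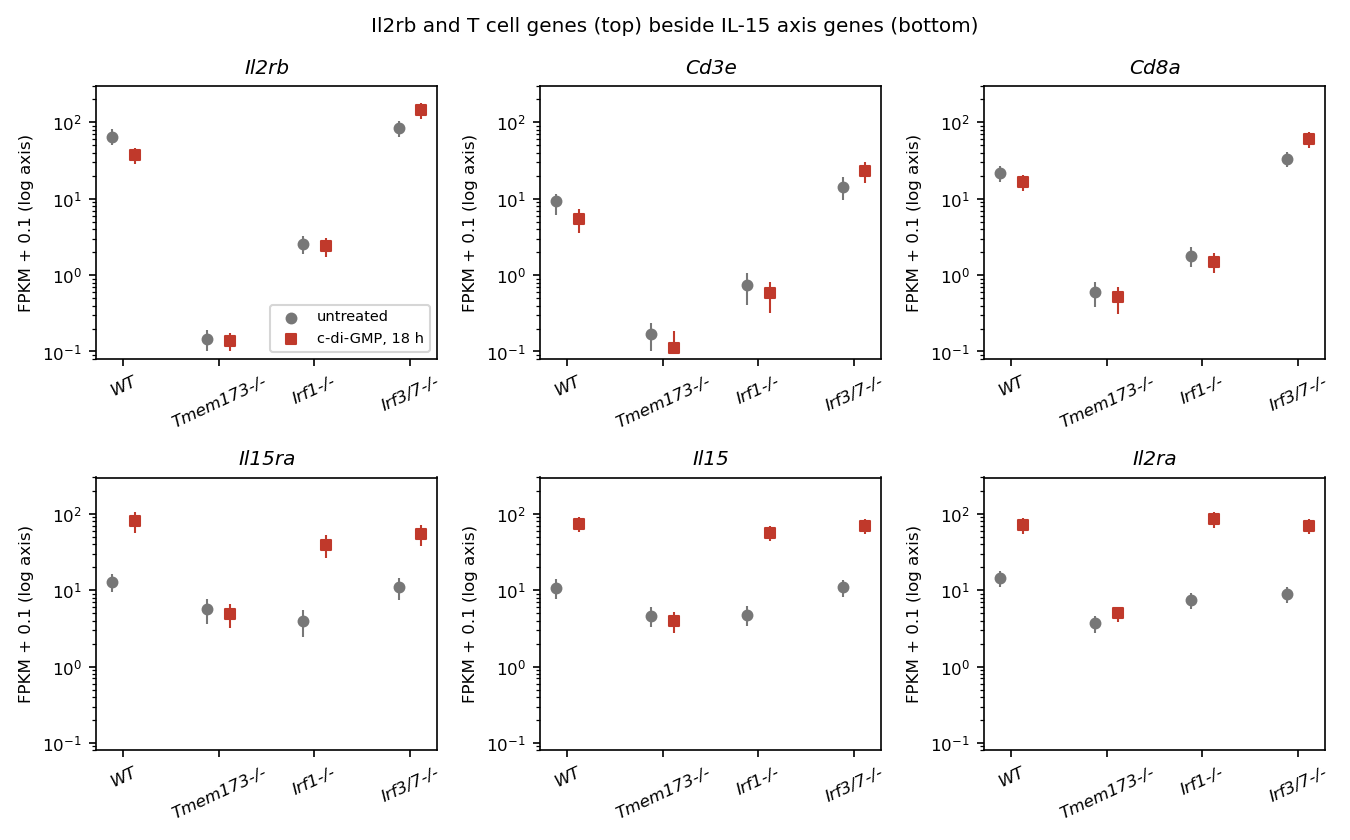
FPKM + 0.1 on a log axis of *Il2rb*, *Cd3e* and *Cd8a* (top) and of *Il15ra*, *Il15* and *Il2ra* (bottom) in untreated (grey circles) and c-di-GMP-treated (red squares) BMDCs of 4 genotypes, with the authors' intervals as bars. The top genes split by genotype, with *Il2rb* between 0.0385 and 145 FPKM, while the bottom genes split by treatment in the 3 genotypes with STING.

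The other genes of the pathway were read from lists of ligands, receptors, signalling proteins and feedback inhibitors. Of 7 ligands, the 6 gamma-chain cytokines and their relative TSLP, *Il15* was the highest in all 8 conditions and the others reached at most 3.30 FPKM. *Il2* and *Il21*, which activated T cells make, stayed at or below 0.285 and 0.0204 FPKM. *Il7* lay between 0.379 and 0.785 FPKM and *Il4* between 0.464 and 3.30 FPKM. *Il9*, a cytokine of T cells and innate lymphoid cells, was listed at 0 in every untreated condition and in treated *Tmem173*-/- BMDCs and was at 0.845 (0.297 to 1.34), 3.22 (1.71 to 4.67) and 0.0587 (0 to 0.148) FPKM in treated wild-type, *Irf1*-/- and *Irf3/7*-/- BMDCs. It was called higher in treated *Irf1*-/- than in treated wild-type BMDCs (log2 1.81). *Tslp*, whose product binds the chains of *Il7r* and *Crlf2* without the gamma chain, went from 0.206 FPKM (0 to 0.772) to 3.28 FPKM (1.05 to 5.51) in *Irf3/7*-/- BMDCs. This was a called rise (log2 3.47), whose size depends on the added 0.1 FPKM because the untreated value is so low. The locus listed for *Tslp*, chr18:32663642-32866420, is also far wider than the annotated gene, chr18:32815383-32819797.

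Among 9 receptor genes, of which *Crlf2* belongs to the TSLP receptor and not to the gamma-chain family proper, 8 were tested in wild-type BMDCs and 4 rose, with none lower and a median of 0.99. The 4, beside 10.5% of all genes tested called higher, were *Il15ra*, *Il2ra*, *Il7r* and *Il2rg*, all described above. *Il4ra*, the IL-4 receptor chain, lies at -24.0 kb from *Il21r* along the chromosome, and went from 57.9 to 100 FPKM in wild-type (log2 0.79, intervals apart, not called) and from 39.4 to 86.6 FPKM in *Irf1*-/- BMDCs (1.13, called). *Crlf2*, the TSLP receptor chain, stayed between 34.7 and 53.9 FPKM and was not called in any comparison, and *Il9r* did not exceed 0.249 FPKM. After treatment, each against wild-type, 6 of 8 receptors were lower in *Tmem173*-/- BMDCs, where 13.5% of all genes tested were called lower. In *Irf1*-/- BMDCs 2 of 8 were lower (*Il15ra* and *Il2rb*), beside 4.91% of all genes. In *Irf3/7*-/- BMDCs 1 of 8 was higher (*Il2rb*), beside 7.30% of all genes called in either direction. The list holds the receptor chains described above, so these counts in part repeat their results.

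Kinases and STAT proteins carry the receptor signal into the cell. Of 6 such genes, all tested, 2 rose in wild-type BMDCs, where 10.5% of all genes tested were called higher. These were *Stat5a* and *Stat5b*, the main STATs of IL-2, IL-7 and IL-15 signalling. *Stat5a* went from 49.2 to 100 FPKM (log2 1.02, just past the 2-fold limit) and *Stat5b* from 19.2 to 45.6 FPKM (log2 1.24). Both also rose in *Irf1*-/- (1.52 and 1.52) and *Irf3/7*-/- BMDCs (1.36 and 1.19), beside 9.67% and 10.2% of all genes tested called higher. *Jak3*, the kinase bound to the gamma chain, was at 15.9 and 17.8 FPKM in wild-type BMDCs (log2 0.17) and *Jak1* at 49.4 and 56.8 FPKM (0.20). *Stat3* had a log2 difference of 0.95 in wild-type BMDCs and was called in *Irf1*-/- BMDCs (1.09), and *Stat6* one of 0.40. Treated *Tmem173*-/- BMDCs had 4 of the 6 lower than treated wild-type BMDCs, where 13.5% of all genes tested were called lower. These were *Stat5a* (-2.40), *Stat5b* (-1.91), *Jak3* (-1.48) and *Stat3* (-1.44). None of the 6 was called in treated *Irf1*-/- or treated *Irf3/7*-/- against treated wild-type BMDCs. Of all genes tested, 4.91% were called lower in the first comparison and 7.30% in either direction in the second.

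Of 4 feedback inhibitors of cytokine signalling, *Socs3* rose, from 29.2 to 172 FPKM in wild-type (log2 2.55), from 28.0 to 223 in *Irf1*-/- (2.99) and from 38.1 to 189 in *Irf3/7*-/- BMDCs (2.31). This was 1 of 4 in each, beside 10.5%, 9.67% and 10.2% of all genes tested called higher. *Cish*, a target of STAT5, was at 148 and 249 FPKM in wild-type BMDCs (log2 0.75), *Socs1* at 209 and 311 FPKM (0.57) and *Socs2* at 154 and 212 FPKM (0.46), none of them called. Against treated wild-type BMDCs, all 4 were called lower in treated *Tmem173*-/- BMDCs, from -1.02 for *Socs2* to -3.34 for *Socs1*, beside 13.5% of all genes. None was called in treated *Irf1*-/- against treated wild-type BMDCs, where 4.91% of all genes were called lower. None was called in treated *Irf3/7*-/- BMDCs either, where 7.30% of all genes were called in either direction.

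Maturation genes of dendritic cells rose beside the 6 genes. Of 8 such genes 7 were tested in wild-type BMDCs and 7 rose, beside 10.5% of all genes tested. Their median was 1.95, close to the 1.99 of the 6 genes. *Cd40*, the receptor for the T cell's CD40 ligand, went from 37.0 to 432 FPKM (log2 3.54) and *Ccr7*, the chemokine receptor that directs cells to lymph nodes, from 265 to 1257 FPKM (log2 2.25). All 7 also rose in *Irf1*-/- BMDCs, beside 9.67% of all genes, and in *Irf3/7*-/- BMDCs, beside 10.2%. None was called in *Tmem173*-/- BMDCs, where 0.0552% of all genes were. None differed by the call rule between treated *Irf1*-/- and treated wild-type BMDCs, where 4.91% of all genes were called lower. The same held for treated *Irf3/7*-/- BMDCs, where 7.30% were called in either direction. *Ccl22* was not tested in the responses of wild-type, *Irf1*-/- and *Irf3/7*-/- BMDCs, since its status was not OK in these 3 treated conditions, and was not called in *Tmem173*-/- BMDCs. In untreated *Tmem173*-/- against untreated wild-type BMDCs 4 of the 8 maturation genes were called lower, where 5.95% of all genes were. Their median was -0.99, beside -0.78 for the 6 genes of the IL-15 axis.

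The neighbours of the genes on the chromosome were examined within 250 kb. Around *Il2ra* and *Il15ra*, *Pfkfb3*, a regulator of glycolysis, lies at -88.9 kb from *Il2ra* and rose from 9.58 to 23.4 FPKM in wild-type (log2 1.28) and from 11.6 to 37.6 FPKM in *Irf3/7*-/- BMDCs (1.69). It was at 11.0 and 10.5 FPKM in *Irf1*-/- BMDCs (log2 -0.07), in which *Il2ra* and *Il15ra* had their largest responses, and was called lower in treated *Irf1*-/- than in treated wild-type BMDCs (-1.14). *Rbm17*, between *Pfkfb3* and *Il2ra*, stayed between 50.9 and 63.0 FPKM, *Fbxo18* between 20.2 and 26.9 FPKM and *Ankrd16* between 4.64 and 6.08 FPKM. The rise was thus not shared by *Rbm17* or *Fbxo18*, the nearest genes on either side of the pair. Of the other members, *Il2rg* had 11 neighbours, of which 6 were tested and none was called in wild-type BMDCs, and *Il21r* had 7, of which 5 were tested and none was called. Near *Il7r*, *Capsl* rose from 2.57 to 6.98 FPKM in wild-type BMDCs (log2 1.40), and near *Il15*, *Inpp4b* fell from 2.28 to 0.687 FPKM (log2 -1.59).

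**Figure D4:**
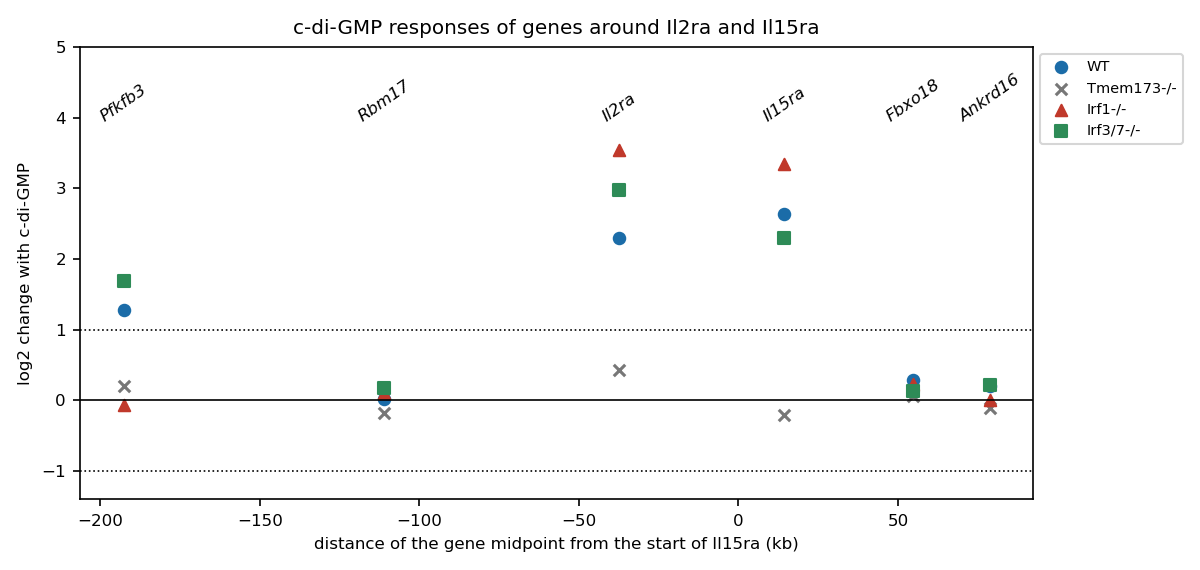
Log2 change of FPKM + 0.1 with c-di-GMP (y axis) of the genes around *Il2ra* and *Il15ra*, against the distance of each gene's midpoint from the start of *Il15ra* in kb, for the 4 genotypes. Dotted lines mark the 2-fold limit. *Il2ra* and *Il15ra* lie between 2.29 and 3.54 in the 3 genotypes with STING, and *Pfkfb3* at -0.07 in *Irf1*-/- BMDCs.

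Genes with the most similar pattern over the 8 conditions were found by the root mean square distance between centred log2 profiles, among 9269 genes with at least 5 FPKM in a condition. This is a description over 8 points that share treatment and genotype. *Casp4*, an inflammatory caspase, was nearest to both *Il15* (0.22) and *Il15ra* (0.17), and went from 20.1 to 125 FPKM in wild-type and from 8.73 to 81.1 FPKM in *Irf1*-/- BMDCs. *Herc6* (0.23) and *Bst2* (0.28) came next for *Il15*, and *Lgals3bp* (0.21) and *Irf8* (0.25) for *Il15ra*, of which *Herc6* and *Bst2* are known as interferon-induced genes and *Irf8* encodes a transcription factor of dendritic cell development. *Trim30d* (0.25), *Sema7a* (0.27) and *Herc6* (0.28) were nearest to *Il2ra*. *Slc15a3* and *Tmbim4* (both 0.10) and *Whamm* (0.13) were nearest to *Il2rg*, and *Mmp25* (0.16), *Dennd5a* (0.18) and *Cacnb3* (0.20) to *Il7r*. *Mapk9* (0.12), *Ncoa1* (0.16) and *Alkbh4* (0.17) were nearest to *Il21r*. No gene was among the nearest 3 of both *Il7r* and the IL-15 pair.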

How the data were processed

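RNA was sequenced from 16 BMDC samples, 2 for each of 8 conditions, as stranded mRNA libraries. The authors computed the deposited FPKM values and their confidence intervals with Cuffdiff, version 1.06 per the labels, combining the samples of a condition, so the spread between samples and the depth are not shown by the table. The labels name mm9, but 98.9% of 21522 loci overlapped their RefSeq namesake in GRCm38, and starts fitted GRCm38 counted from 0, so positions are printed on GRCm38 counted from 1. The aligner and annotation are not given in the sources used here. A further 3 value columns, for another knockout, were not used.

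Values were compared as log2(FPKM + 0.1) over the whole table in 11 comparisons. A gene was tested with status OK in both conditions and at least 1 FPKM in one, and called with a fold change above 2 and intervals apart. The intervals are the authors' and no p-value was computed. Groups came from the labels. Named genes were the 6 genes, the pathway lists, the targeted genes, marker lists, genes within 250 kb, and the 3 nearest profiles of each gene. The marker genes named singly were picked from the marker lists after their values were seen. The members and lists were chosen with earlier results of these data known. Tried in turn were 9 alternatives. Python 3.11.15, numpy 2.4.6, pandas 2.3.3 and matplotlib 3.10.9 were used.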

Additional observations from a re-analysis of the deposited data

Results flagged for a closer look

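*Il2rb*, the receptor chain that pairs with the gamma chain for IL-15 and IL-2, moved in opposite directions with c-di-GMP in 2 genotypes, with log2 differences of -0.79 in wild-type BMDCs (65.3 to 37.7 FPKM) and 0.79 in *Irf3/7*-/- BMDCs (83.9 to 145 FPKM). The authors' intervals lay apart in both, neither passed the 2-fold limit, and the difference between the genotypes was not tested, since the samples of each condition were combined before deposition. The T cell marker sum was 81.1 and 58.1 FPKM in untreated and treated wild-type BMDCs and 110 and 192 FPKM in *Irf3/7*-/- BMDCs. Of 9 tested markers 1 was called (*Cd5*, lower) in wild-type and 0 in *Irf3/7*-/- BMDCs. Their median log2 difference was -0.51 in wild-type and 0.78 in *Irf3/7*-/- BMDCs, under the 2-fold limit as for *Il2rb*. In the *Irf3/7*-/- response *Cd3d*, *Cd3g*, *Cd8a* and *Lck* had intervals apart and higher, and *Cd5* apart and lower. The NK cell marker sum was 688 and 679 FPKM in wild-type and 703 and 2178 FPKM in *Irf3/7*-/- BMDCs. The part of such cells in the *Il2rb* values was not tested.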

How the results depend on the processing

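Of 594 combinations of gene, comparison and alternative, 567 kept their outcome, whether called or not called, 13 lost a call and 14 gained one. No called gene changed direction, which was read only for genes called with the settings above. Only the pseudocounts and median centring can alter a log2 difference. A fold limit of 4 in place of 2 left 3 of 5 called genes in the wild-type response, 3 of 5 in treated *Tmem173*-/- against wild-type, and 0 in treated *Irf1*-/- against wild-type (from 1), untreated *Tmem173*-/- against wild-type (from 3) and untreated *Irf1*-/- against wild-type (from 2). With a pseudocount of 1 FPKM the count in treated *Irf1*-/- against wild-type was 0. With a fold limit of 1.5, or with intervals alone, it was 3, and 1 gene was called in untreated *Irf3/7*-/- against wild-type (from 0) and 1 in treated *Irf1*-/- against treated *Irf3/7*-/- BMDCs (from 0). Median centring of the conditions, which shifted them by at most 0.03 on the log2 scale, changed no call of the 6 genes. Over the whole table the number of called genes ran from 6 to 2980 over the 11 comparisons, and from 0 to 1174 with the fold limit of 4. It moved by over 1.5 times in 6 comparisons with a minimum of 5 FPKM (to between 112 and 800), in 3 with a pseudocount of 1 FPKM (to between 1 and 536), in 2 with a fold limit of 1.5 or with intervals alone (to between 56 and 350), and in 1 each with no filter (to 10), a pseudocount of 0.01 FPKM (to 11) and fold change alone (to 83). No paired analysis was possible because each condition has a single value with its samples combined, and for the same reason no sample could be left out. The intervals of the 6 genes were 22.6% to 39.5% of the FPKM on either side, which limits the differences that can be seen.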
